A study of Homo sapiens with 8 samples.

Results

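The interferon and innate immune genes described here are 9 genes of interferon signalling, RNA sensing and the NF-κB response: STAT2, IRF9, IRF1, ISG15, OAS3, IFIH1, EIF2AK2, NFKBIA and CXCL8. They were taken as all entries of the deposited peak table whose gene symbol is one of these names. That gave 12 of 22626 peaks, and all 9 genes had at least 1 peak. The study measured N6-methyladenosine (m6A), a methyl mark on adenosines inside RNA, in HCT116 cells, a human colorectal cancer line. The arms were HCT116 cells with a stable hairpin knockdown of ALKBH5 (shALKBH5), the demethylase that removes m6A, and HCT116 cells with a non-targeting control hairpin (shNC), labelled WT for genotype. All titles of the knockdown arm carry the same hairpin name, and no other hairpin was analysed here. For each arm, poly(A) RNA fragments bound by an antibody against m6A (IP) were sequenced beside unselected fragments (input), with 2 libraries in each of the 4 groups. No label describes an interferon treatment, an infection or another immune stimulus. Per the series' design text, the question was what the m6A sites under the control of ALKBH5 look like and where they are found.

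Interferons are secreted when a cell senses foreign or misplaced RNA or DNA. Binding of type I interferon to its receptor activates JAK kinases, which phosphorylate STAT factors such as STAT2. Together with IRF9, STAT2 forms part of a transcription complex that binds the interferon-stimulated response element (ISRE) in front of interferon-stimulated genes such as ISG15 and the OAS genes. Several of those gene products are themselves RNA sensors, and sensing also frees NF-κB from its inhibitor IκBα, the product of NFKBIA, so that genes such as CXCL8 are transcribed. m6A marks a cell's own transcripts and is known to influence their decay, their translation and how strongly RNA sensors respond to them.

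The elements that define these pathways were looked up in the promoters of the 9 genes, to show which members carry them. Promoter windows came from RefSeq (build GRCh38.p14), run from 250 bases before to 50 bases after the annotated start, and matched all 9 genes by symbol. The core of an ISRE, spelled GAAA, any 2 bases, then GAAA, was searched on both strands and occurred in the windows of ISG15, OAS3, IFIH1 and EIF2AK2, which is 4 of 9 against 3.57% of 35116 promoters. The interferon-gamma-activated site (GAS), TTCNNNGAA on both strands, through which interferon-gamma acts, occurred in IRF1 and IRF9, against 7.66% of all windows. A κB-type site, GGAANTTCC, which reads the same on both strands, occurred in CXCL8, NFKBIA and OAS3, against 0.965% of all windows. STAT2 had none of these 3 strings in its window. Below, stretches of 30 bases are given 5′ to 3′ on the strand of the gene, with the matching letters in capitals, for the ISRE cores first, then GAS, then κB. In ISG15 a pair of ISRE cores overlaps, at bases -113 to -98 from the start, and in IFIH1 a pair on the opposite strand overlaps.
ISG15: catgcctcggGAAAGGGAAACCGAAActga
OAS3: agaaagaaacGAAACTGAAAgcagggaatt
IFIH1: gagaattcgcTTTCCTTTTCTGTTTCccgc
EIF2AK2: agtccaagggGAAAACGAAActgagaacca
IRF1: aacagcctgatTTCCCCGAAatgacggcac
IRF9: gaccacgtgatTTCTGGGAAaaggccctcc
CXCL8: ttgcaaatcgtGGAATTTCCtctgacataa
NFKBIA: ctgactggcttGGAAATTCCccgagcctga
The ISG15 stretch lies at chr1:1013374-1013403 (plus strand), that of OAS3 at chr12:112938321-112938350 (plus), that of IFIH1 at chr2:162318824-162318853 (minus) and that of EIF2AK2 at chr2:37156967-37156996 (minus). The IRF1 stretch lies at chr5:132490879-132490908 (minus), that of IRF9 at chr14:24161191-24161220 (plus), that of CXCL8 at chr4:73740467-73740496 (plus) and that of NFKBIA at chr14:35404812-35404841 (minus). The κB letters were chosen with these promoters in view, so their counts only describe them. A match of letters is not evidence that a factor is bound, and the m6A data say nothing of transcription from these promoters.

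Of the 12 peaks, that of ISG15 alone differed between shALKBH5 and shNC cells at a false discovery rate (FDR) under 0.05 in the authors' deposited table. That is 8.33% of the peaks, beside 8.23% of all 22626 peaks, so the share of called peaks is near the background. By sign, 1 member peak was called with a negative and 0 with a positive log2 fold, beside 2.49% and 5.74% of all peaks. At an unadjusted p under 0.05 the count was 2 of 12, ISG15 and the strongest STAT2 peak, beside 19.9% of all peaks. No header or label states whether shALKBH5 or shNC is on top of the deposited fold, so its sign is printed as deposited and is not translated into more or less m6A after knockdown. Nor is it stated whether input was used to correct the fold for transcript abundance, so m6A per transcript and transcript level cannot be told apart, nor can fewer cells with the transcript and less RNA per cell. The file gives 1 value per peak for the whole comparison, so no value below has an error between replicates, and sequencing depth is unknown.

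Signs of the fold were mixed across the 9 genes. Of the 12 peaks, 8 had a negative and 4 a positive log2 fold in the authors' deposited table, where 43.5% of all peaks had a negative one. The positive folds were the 3 peaks of STAT2 and the peak of OAS3. The median log2 fold of the 12 peaks was -0.19, beside 0.14 over all peaks, both from the authors' deposited table. That overall median is positive, so the 8 negative folds necessarily lay below it, and the 4 positive folds lay above it. Since 11 of the 12 peaks did not pass, these signs describe the table and not a shared change.

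**Figure D1:**
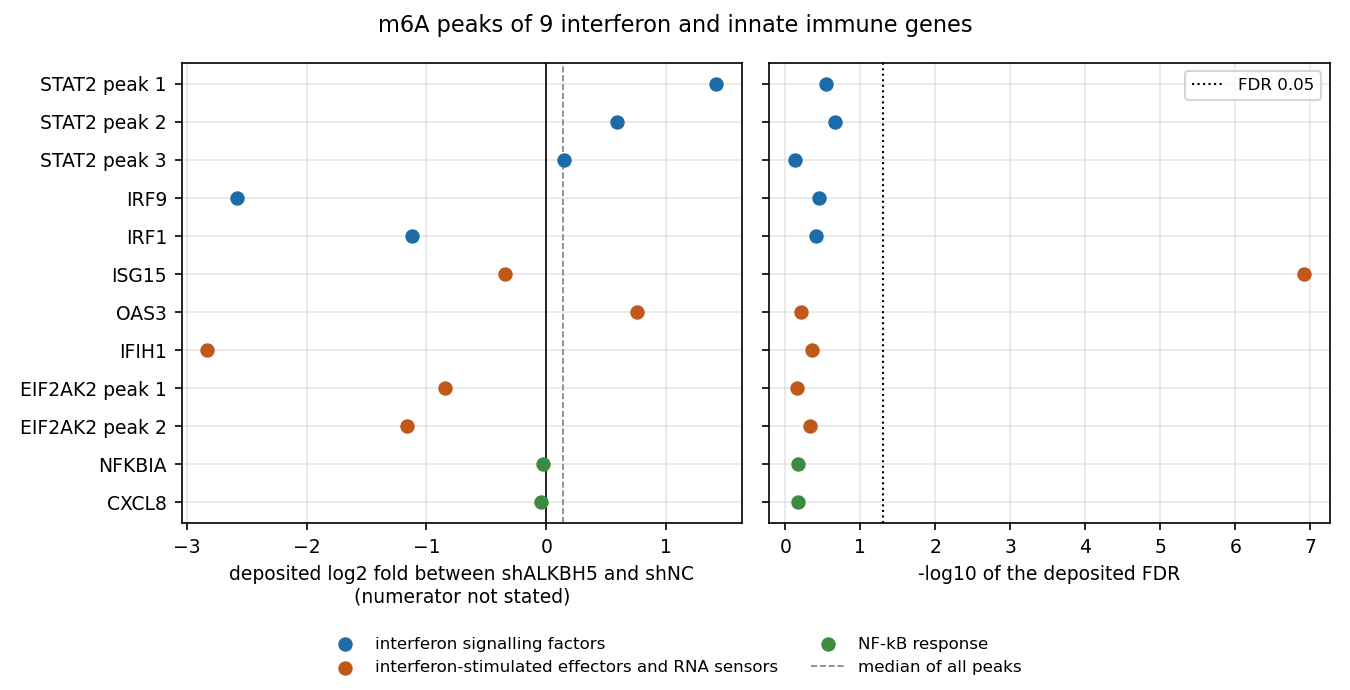
Deposited log2 fold between shALKBH5 and shNC (left, numerator not stated, dashed line at the median of all peaks, 0.14) and −log10 of the deposited FDR (right, dotted line at 0.05) for each of the 12 peaks, coloured by role. Peaks of 1 gene are numbered by genome coordinate, low to high, and each point is a single value without replicates. ISG15 has a small fold (-0.35) and stands far past the FDR line, while IRF9 and IFIH1 have the most negative folds and lie short of it.

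ISG15 encodes a ubiquitin-like protein that is joined to other proteins (ISGylation) and is among the genes most strongly induced by interferon. Its single peak (ENSG00000187608) lies on chromosome 1 at 1014002 to 1014540 of GRCh38, plus strand, in 1 block of 539 bases. The peak covers 51.6% of the annotated length of the gene (1044 bases) and ends at the annotated 3′ end. In the authors' deposited table its log2 fold was -0.35, a ratio of 0.787, with p = 1.38e-09 and an FDR of 1.2e-07. After subtraction of the median of all peaks the ISG15 fold was -0.49, and the peak passed under every alternative that was run on the member peaks.

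The ISG15 call rests on a small fold in a strong peak. The log10 p of the peak itself was -213 in the authors' deposited table, stronger than 96.6% of all peaks. Enrichment, read here as IP over input, was 4.13-fold for ISG15 in the authors' deposited table, higher than only 19.5% of all peaks. Of all called peaks, 4.24% had a smaller absolute fold than ISG15, and the median absolute log2 fold of called peaks was 1.12 in the authors' deposited table. Calls of this kind are common among strong peaks. Of 841 peaks with a log10 peak p below -200, 38.2% were called, and of the 203 among them with an absolute log2 fold of 0.25 to 0.45, 36.9% were called. Among the 564 peaks called with a negative fold, ISG15 ranked 50 by FDR in the authors' deposited table. It is not stated whether the authors' p takes the spread between the 2 libraries of a group into account.

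STAT2, the transcription factor subunit that is specific to signalling by type I and type III interferons, carried 3 peaks on chromosome 12, minus strand (ENSG00000170581). The strongest spans 56343244 to 56346443 in 4 exon blocks with 659 exonic bases in all, and lies 3246 bases from the annotated 3′ end at its centre. Its enrichment of 27.3-fold in the authors' deposited table was the highest of the 12 peaks and above that of 91.3% of all peaks. The log2 fold of that STAT2 peak was 0.59 in the authors' deposited table, with p = 0.0389 and an FDR of 0.219, so it passed only before adjustment. The STAT2 peak at 56341657 to 56341926, centred 194 bases from the 3′ end, had a larger log2 fold of 1.42 and an FDR of 0.284 in the authors' deposited table. The STAT2 peak at 56355041 to 56355221, toward the 5′ end, stood at 0.15 with an FDR of 0.746 in the authors' deposited table. Thus the 3 STAT2 folds share a sign and none passed. The fold of that last STAT2 peak is 0.01 once the median of all peaks is subtracted.

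IRF9, the DNA-binding partner of STAT2, had 1 short peak of 120 bases on chromosome 14 at 24162160 to 24162279, plus strand, centred 954 bases from the annotated 5′ end. The authors' deposited table gives the IRF9 peak a log2 fold of -2.58, larger in size than 96.6% of all folds, with an FDR of 0.359. The IRF9 peak itself was weak, with a log10 p of -2.78 and 3.38-fold enrichment in the authors' deposited table. IRF1, a transcription factor induced through GAS elements by interferon-gamma, had 1 peak of 271 bases on chromosome 5 at 132483767 to 132484037, minus strand. In the authors' deposited table the IRF1 peak had a log10 peak p of -14.4, 6.80-fold enrichment and a log2 fold of -1.12 with an FDR of 0.386. The transcription factors of the pathway thus carried folds of either sign, and none of their 5 peaks passed.

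The RNA sensors were marked by weak peaks. IFIH1 encodes MDA5, a helicase that senses long double-stranded RNA in the cytoplasm. Its peak, at 162317875 to 162318235 on chromosome 2, minus strand, lies 629 bases from the annotated 5′ end at its centre. The IFIH1 fold of -2.83 was the most negative of the 12 peaks and larger in size than 97.9% of all folds, yet its FDR was 0.446 in the authors' deposited table. EIF2AK2 encodes PKR, a kinase that double-stranded RNA activates and that then halts translation, and it had 2 peaks, on chromosome 2, minus strand. In the authors' deposited table the log2 fold was -0.85 (FDR 0.698) for the EIF2AK2 peak at 37105987 to 37106137 and -1.16 (FDR 0.468) for the peak at 37148918 to 37149158. This last EIF2AK2 peak overlaps a listed peak of the pseudogene ARL14EPP1 on the opposite strand, at -0.95 (FDR 0.52) in the authors' deposited table, so the value may belong to either. OAS3 makes oligoadenylates that activate the ribonuclease RNase L. Its peak, at 112973013 to 112973163 on chromosome 12, plus strand, is centred 163 bases from the 3′ end and had a log2 fold of 0.76 with an FDR of 0.624 in the authors' deposited table. None of the 4 sensor peaks passed, and their log10 peak p ranged between -2.76 and -4.87 in the authors' deposited table.

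Few weak peaks were called across the whole table, also among those with large folds. Of the 12 member peaks, 7 had a log10 peak p above -5, where 32.1% of all peaks did. Of the 7258 peaks in that class only 1.28% were called, and 6.33% of the 395 among them whose absolute log2 fold was at least 2.5. Large folds among stronger peaks were not counted. Peaks between a log10 p of -5 and -200 were called in 9.97% of cases. IRF9, OAS3, IFIH1 and EIF2AK2 were represented by peaks of the weakest class only. Several of these values recur exactly: 226 other peaks share both the peak p and the enrichment (10.7-fold) of the first EIF2AK2 peak in the authors' deposited table. The pair of values for IFIH1 (17.4-fold) recurs in 100 other peaks and that for the STAT2 peak nearest the 5′ end (11.8-fold) in 219 other peaks of the authors' deposited table. Read counts behind these peaks were not analysed here.

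**Figure D2:**
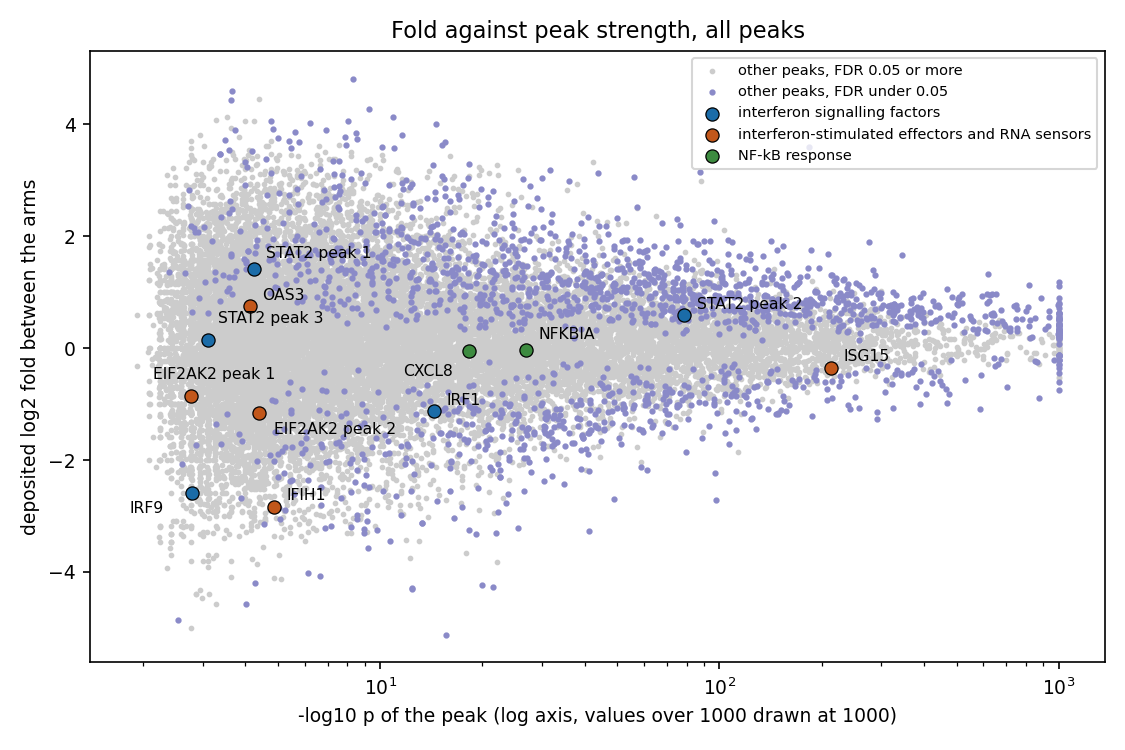
Deposited log2 fold between the arms against −log10 of the peak's own p (log axis), for all 22626 peaks and, as large circles, the 12 member peaks coloured by role. Each point is 1 peak. Called peaks (FDR under 0.05, blue-violet) have smaller folds as peaks get stronger, and ISG15 stands among strong peaks while IRF9 and IFIH1 stand among weak ones.

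The NF-κB response genes had firm peaks with folds close to 0. NFKBIA encodes IκBα, which holds NF-κB in the cytoplasm and is itself an NF-κB target. Its peak spans 35401720 to 35402498 on chromosome 14, minus strand, in 2 blocks with 446 exonic bases, centred 596 bases from the 3′ end. In the authors' deposited table the NFKBIA peak had a log10 peak p of -26.8, 6.84-fold enrichment and a log2 fold of -0.03 with an FDR of 0.671. CXCL8 encodes a chemokine that attracts neutrophils. Its peak spans 73740541 to 73741658 on chromosome 4, plus strand, in blocks of 182 and 117 bases. The CXCL8 peak had a log10 peak p of -18.3, 6.67-fold enrichment and a log2 fold of -0.04 with an FDR of 0.671 in the authors' deposited table. Only 2.79% of all peaks had a smaller absolute fold than NFKBIA and 3.87% a smaller one than CXCL8. An interval for these folds cannot be given without values per library, so they are not shown to be equal between the arms.

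The CXCL8 peak was the only one of the 12 that reached a promoter window. It begins 28 bases before the annotated start of the gene and shares 78 bases with the window. The last 30 bases of that overlap, chr4:73740589-73740618 (plus strand, GRCh38.p14), hold GGAC, the core of the usual m6A consensus, given in capitals, at bases 38 to 41 after the start.
CXCL8 peak: gagcacacaagcttctaGGACaagagccag
GGAC was searched on the strand of the gene in the 50 bases after the start and occurs there in 18.9% of all windows, so the match is only a description. The peak does not locate the modified base. Sequences of the other peaks were not used here.

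Some of the peaks lay near an end of their gene and others did not. Of the 12 peaks, 4 were centred within 1000 bases of the annotated 3′ end, in STAT2, ISG15, OAS3 and NFKBIA, where 20.1% of 20328 peaks centred in a matched gene were. Within 1000 bases of the annotated 5′ end 4 were centred, in IRF9, ISG15, IFIH1 and CXCL8, where 8.9% of the same 20328 peaks were. ISG15 counts under both, since the gene is only 1044 bases long. The IRF1 peak, the EIF2AK2 peaks and the other STAT2 peaks were centred within 1000 bases of neither end. Distances are along the genome with introns included, and coding and untranslated parts were not distinguished. Peaks of more than 1 exon block numbered 3 of 12, in STAT2, NFKBIA and CXCL8, beside 30.4% of all peaks. Of the 9 genes, 7 had a single peak, where 51.6% of all genes with a peak did. Enrichment over the 12 peaks ranged between 3.22-fold and 27.3-fold, with a median of 6.73-fold beside 10.1-fold for all peaks in the authors' deposited table.

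**Figure D3:**
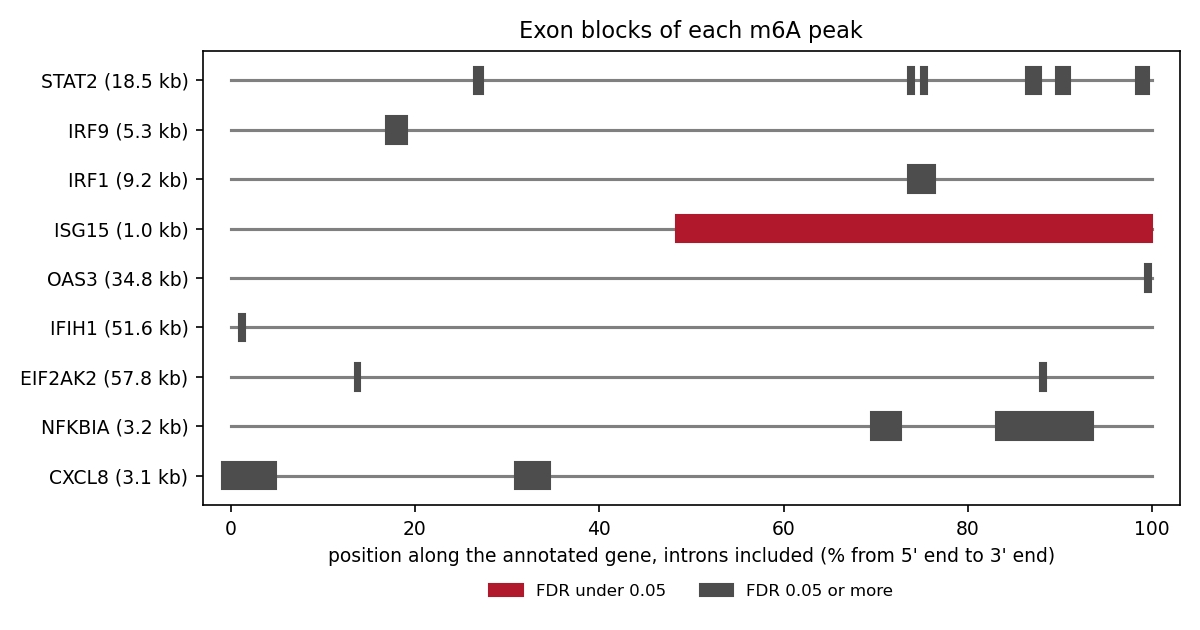
Position of the exon blocks of each peak along its gene, as a percentage of the annotated gene from its 5′ end to its 3′ end with introns included, for the 9 genes with their lengths in kilobases. Blocks narrower than 0.6% of the gene are drawn at 0.6%. The called ISG15 peak (red) fills the 3′ part of a short gene, CXCL8 and IFIH1 have peaks at the 5′ end and OAS3 at the 3′ end.

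Other genes of the same pathways were taken from 7 lists of 124 genes chosen by pathway membership, of which 75 genes had 142 peaks. Of these peaks 18 on 14 genes were called, 16 with a positive and 2 with a negative fold in the authors' deposited table. That is 11.3% positive and 1.41% negative, beside 5.74% and 2.49% of all peaks, and the median log2 fold was 0.29 beside 0.14. This split depends on where folds are centred: with the median of all peaks subtracted, 10 positive and 9 negative peaks were called. Of the 16 positive peaks, 4 belong to ADAR, so peaks here are not independent genes.

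Interferon-stimulated effectors held 9 of the 18 called peaks. Their list had 36 peaks on 21 of 43 genes, so 9 of 36 were called, beside 8.23% of all peaks. These 9 calls fell on only 5 genes, with 4 in ADAR and 2 in B2M. ADAR, which edits adenosines to inosines in double-stranded RNA and thereby limits sensing by MDA5, had all of its 4 peaks called. The authors' deposited table lists the ADAR log2 folds as 1.23 (FDR 0.00151), 0.49 (FDR 0.00302), 0.93 (FDR 0.0107) and 1.17 (FDR 0.0275), of which the peaks at 1.23 and 0.93 were also called after recentring. The peak at 1.17 did not pass with p doubled. B2M, the light chain of MHC class I, had 2 called peaks, at 0.23 (FDR 0.00257) and 0.92 (FDR 0.00741) in the authors' deposited table. Its other peak, the strongest of the 3 by peak p, stood at -0.11 in the authors' deposited table, without a call. Once folds were recentred, the B2M call at 0.23 was lost and that strongest peak was called at -0.25, so the sign of the called B2M peaks depends on the centring. IFI6, a small interferon-induced membrane protein, stood at 0.47 with an FDR of 1.78e-05 in the authors' deposited table, in a peak that overlaps a listed peak of LINC02574 on the same strand. With overlapping peaks merged to 1 locus the IFI6 peak is no longer counted, since the LINC02574 peak has the smaller p. IFITM3, a membrane protein that blocks virus entry, stood at 0.32 (FDR 0.00309) in the authors' deposited table, was not called after recentring, and has near-identical paralogs that may share reads. PML, the organiser of PML nuclear bodies, was listed at -1.47 in a peak called with an FDR of 0.00479 in the authors' deposited table. Another PML peak had the opposite sign, at 1.28 with an FDR of 0.234 in the authors' deposited table.

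Genes that sense RNA or pass on its signal had 30 peaks on 12 of 18 genes, of which 3 were called, all positive. That is 10.0% of the list, near the 8.23% of all peaks. TRAF3, an adaptor upstream of the kinase TBK1, stood at 2.01 (FDR 0.0209), TRIM25, a ubiquitin ligase that acts with RIG-I, at 0.77 (FDR 0.00813) and MAVS, the mitochondrial adaptor of RIG-I and MDA5, at 0.64 (FDR 0.0457) in the authors' deposited table. MAVS was no longer called with folds recentred and with p doubled. The authors' deposited table lists the other TRAF3 peaks, none of them called, at 1.06 (FDR 0.57), -1.08 (FDR 0.662) and -0.379 (FDR 0.729). TRAF3 peaks thus carried folds of either sign, and the called one had a log10 peak p of -5.69. IRF3, which switches on interferon genes after sensing, was called at -2.24 (FDR 0.00513) in the authors' deposited table, among the peaks of STAT and IRF factors. Of the 17 peaks in that list, 11.8% were called.

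The remaining lists had 1 called peak each. That is 4.17% of the peaks of NF-κB genes, 6.67% for receptors and JAK kinases and 5.88% for negative regulators, beside 8.23% of all peaks. The list of chemokines and cytokines had only 3 peaks. RELA, the transactivating NF-κB subunit, carried 4 peaks, of which that with a log2 fold of 1.74 was called at an FDR of 3.02e-05 in the authors' deposited table, among 24 peaks of NF-κB genes. The strongest RELA peak had the opposite sign, at -0.59 with an FDR of 0.0851 in the authors' deposited table, and was called at -0.73 once folds were recentred. JAK1, the kinase shared by the interferon receptors, stood at 1.36 (FDR 6.76e-05) in the authors' deposited table, among 15 peaks of receptor and JAK genes. PTPN11, which encodes the phosphatase SHP2, stood at 1.17 (FDR 0.0055) in the authors' deposited table, among 17 peaks of negative regulators. IL18, an inflammatory cytokine, stood at 0.69 (FDR 0.00794) in the authors' deposited table, in a list where 2 of 17 genes had a peak. The other IL18 peak stood at -0.705 (FDR 0.685) in the authors' deposited table. Just short of the threshold were IRF2BP1 at -3.93 (FDR 0.0575), IFIT5 at -1.61 (FDR 0.0575), IRF2BP2 at 0.32 (FDR 0.0603), PIAS1 at 1.17 (FDR 0.0724) and SOCS3 at -0.88 (FDR 0.0851) in the authors' deposited table. Of these, IRF2BP1, IFIT5 and SOCS3 were called once folds were recentred. The IRF2BP1 call was marginal, at a recentred FDR of 0.0495 with p read as one-sided, in a weak peak (log10 peak p of -2.35). The strongest IRF2BP1 peak (log10 peak p of -67.8) stood at -0.23 (FDR 0.587) in the authors' deposited table. Its remaining peaks stood at 0.19 (FDR 0.641) and 0.60 (FDR 0.662).

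**Figure D4:**
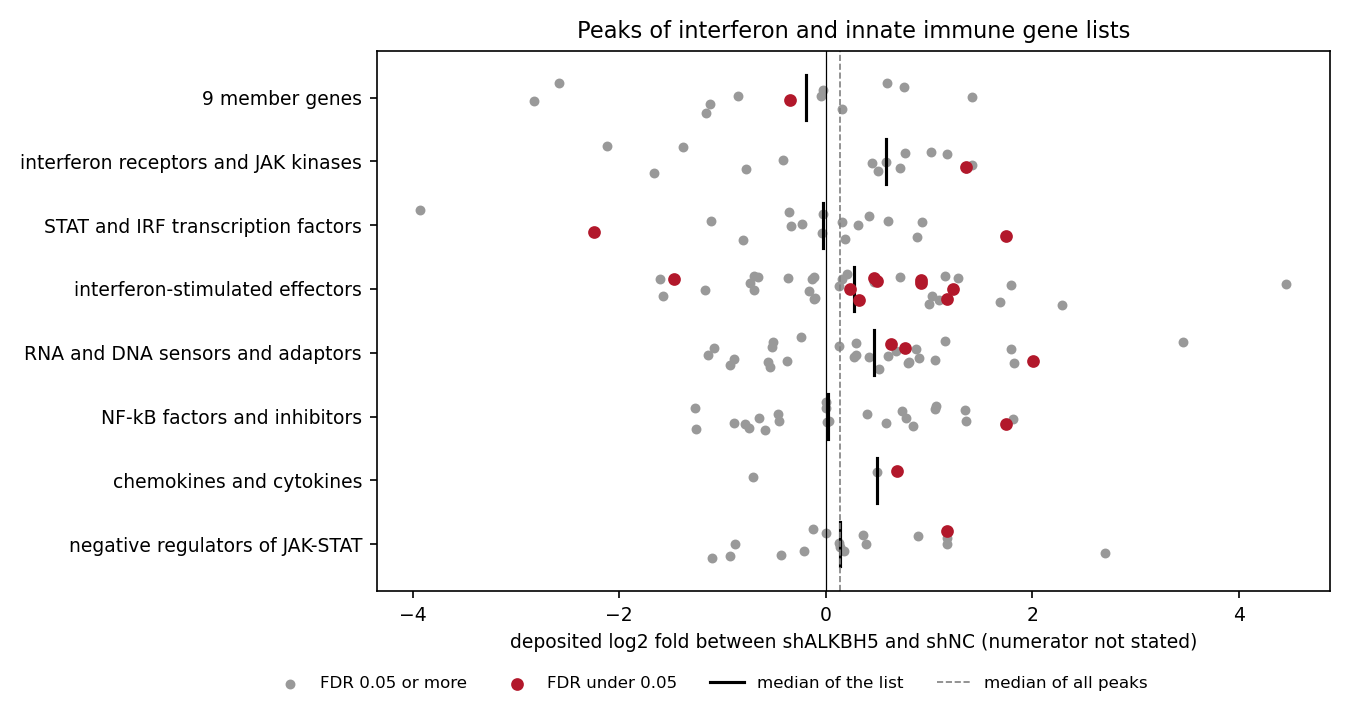
Deposited log2 fold between shALKBH5 and shNC (numerator not stated) for each peak of the 9 member genes and of 7 other lists. Points are peaks, red where the FDR is under 0.05, with vertical bars at the median of each list, and the dashed line marks the median of all peaks (0.14). In the other lists 16 called peaks have positive and 2 negative folds as deposited (10 and 9 once recentred), while the single called member peak, ISG15, is at -0.35.

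Over the whole series, 12009 genes had a peak and 1862 peaks were called, and none of the 3 peaks on ALKBH5 itself was. The level of ALKBH5 was not analysed here, so the knockdown was not checked. Of 9 markers of colorectal epithelium 5 had a peak (EPCAM, KRT8, KRT18, CDH1 and CDX2), as did 1 of 7 leukocyte markers (CD68) and 1 of 6 fibroblast markers (COL1A1). Of the 12 peaks on the epithelial markers 6 were called between the arms, beside 8.23% of all peaks, and 0 of the 2 leukocyte and 0 of the 1 fibroblast marker peaks were. The part of these markers in the results above was not tested. A peak shows that a marked transcript was detected and is not a measure of its level.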

How the data were processed

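IP and input libraries of shALKBH5 and shNC cells were assigned to groups from their titles, and separate cultures for the 2 replicates are not mentioned in the labels. The protocols name more than 1 antibody and sequencer. GRCh38, HOMER 4.9.1 and BWA 0.7.12 are listed, without their roles, in the submitters' processing notes. The peak caller is not stated there. The deposited table lists 22626 peaks, with the p-value of each peak (in the column headed score) and its log10 p in a column of its own. Per the file headers it also gives a fold enrichment and the log2 fold, log10 p and log10 FDR of a difference. The headers name neither IP and input nor the arms. Enrichment is read here as IP over input and the difference as the authors' comparison of the arms. Whether replicates were pooled is not given.

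The main calls are the authors' FDR under 0.05. Adjusting the deposited p over all peaks by the Benjamini-Hochberg method agreed within 0.02 on the log10 scale for 22469 peaks. The largest deposited p was 0.773, and the median p was 0.565 for 1009 peaks with an absolute log2 fold under 0.05, so whether p is one-sided or two-sided is unclear and p doubled was run as an alternative. Recentring took a standard error from fold and p, read as one-sided, where p was under 0.3 (11573 peaks), and predicted it from peak p, enrichment and length for 11053 peaks. It was tested on simulated data built with the same one-sided p and standard errors, so that test cannot show whether these hold for the deposited values. Overlapping peaks (at least 1 shared base, either strand) were merged to 20560 loci. Gene bounds and promoters came from GRCh38.p14 RefSeq tables by symbol. Computations used Python 3.11.15, pandas 2.3.3 and scipy 1.17.1. Members and lists were chosen with earlier results of these data known. Named genes are all members, each gene of the other lists with a called peak and the 5 others with the smallest FDR, and some genes that this rule takes are not reported. No test across libraries was run, since values per library were not analysed here.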

Additional observations from a re-analysis of the deposited data

How the results depend on the processing

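No paired analysis was possible because the table holds 1 value per peak and none per library, and for the same reason no replicate could be left out. The count of 1 called member peak (ISG15) was the same at an FDR of 0.01 or 0.1, with p doubled, with folds recentred, with peaks filtered on their own FDR and with overlapping peaks merged. The looser FDR and recentring could have added peaks but could not have removed ISG15. At an unadjusted p of 0.05 it was 2, of which 1 was positive. In the other lists the 18 called peaks became 41 at an unadjusted p of 0.05, with 28 positive and 13 negative. Recentred, 10 were positive and 9 negative, and at an FDR of 0.1 there were 7 negative. Recentring moved the share of positive folds over all calls to 53.0%, beside 69.7% as deposited, and 934 positive and 829 negative peaks were called. No fold of a member peak changed sign. Every member peak had an own FDR under 0.01 (the largest was 0.00759, in EIF2AK2), so the filter on own FDR removed none of them. For the member count that filter changed only the adjustment of p. The median enrichment of member peaks, 6.73-fold, could not change under it, a setting chosen for enrichment after seeing the data. The weakest peaks limit what IRF9, OAS3, IFIH1 and EIF2AK2 can show.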
